A study of Mus musculus with 6 samples.

Results

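Liver expression of 10 genes for secreted plasma proteins was compared between laboratory and wild house mice (Mus musculus). The 10 genes were taken by name and encode carriers of small molecules and chains of the inter-alpha-trypsin inhibitor (Ttr, Rbp4, Gc, Afm, Hpx, Azgp1, Ambp, Itih1, Itih3 and Itih4). They were 10 of the 47232 gene names with an estimate in every mouse, and all 10 passed the filter on low values that left 18619 genes for testing. The laboratory group held 3 inbred C57BL/6 males aged 17 to 18 weeks, obtained from a supplier. The wild group held 3 outbred adults, live-trapped at neighbouring places and housed for 3 months before sampling, of which 1 was male (wild mouse 1) and 2 were female (wild mice 2 and 3). No group received a treatment, and each mouse gave 1 RNA-Seq library from frozen liver. In the paper, the laboratory mice had been archived for longer than the wild mice when fixed tissue was sampled. Origin, housing, age, sex and time of collection cannot be fully told apart in this design.

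Hepatocytes secrete most of the abundant proteins of blood plasma, and carriers among them keep poorly soluble molecules such as retinol, vitamin D, thyroid hormone and haem in solution and out of the urine. Transthyretin (Ttr) carries thyroid hormone and binds the retinol carrier Rbp4, and the complex is too large to be lost through the kidney. The inter-alpha-trypsin inhibitors are made of bikunin, cut from the Ambp precursor, and of heavy chains encoded by the Itih genes, which can be passed on to hyaluronan in the extracellular matrix.

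Each value is given as FPKM, the number of fragments scaled to transcript length and library size, and as zFPKM, for which log2 FPKM is centred on the mode of all genes in a mouse and divided by an SD fitted to that mouse. The mode lay between 0.491 and 2.51 and the SD between 2.51 and 3.12 over the 6 mice. The same FPKM therefore stood at a different zFPKM in each mouse, and a difference between groups could change sign between the scales. Both are given for each gene, always as laboratory minus wild. The tests were limma fits over all 18619 genes, and a gene was called at a Benjamini-Hochberg adjusted p under 0.05. The files give no read counts. From genes with about 1 read, laboratory mouse 1 was as deep as laboratory mouse 2, and relative to that mouse the depth was 0.922 in laboratory mouse 3 and 1.14 to 1.36 in the wild mice. The summed FPKM of 6 hepatocyte marker genes was 43993 to 55873 in the laboratory mice and 28849 to 36399 in the wild mice, against at most 1.86 for 6 acinar pancreas genes and 0.0766 for 4 kidney tubule genes. Most of the hepatocyte sum came from Apoa1 and Apoa2, which were called higher in laboratory mice in zFPKM, while Apob, Tat and Cyp2e1 were called lower (Cyp2e1 at 242 to 519 FPKM in laboratory and 3229 to 3650 FPKM in wild mice).

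Of the 10 genes Itih4 had the largest FPKM fold between groups, and 3 heavy chain genes stand together on mouse chromosome 14. On GRCm38.p6, Itih4 lies at chr14:30886476-30901986 on the plus strand (23 exons), and Itih3 at chr14:30908572-30923787 and Itih1 at chr14:30929180-30943289 on the minus strand (22 exons each). Itih4 and Itih3 are separated by 6585 bases, Itih3 and Itih1 by 5392 bases, and the 3 genes span 56.8 kb. The vitamin D carrier gene Gc (chr5:89417511-89457898, minus strand, 13 exons) and the albumin family gene Afm (chr5:90518949-90553544, plus strand, 10 exons) lie 1061 kb apart. The other positions were chr19:38116620-38125321 for Rbp4, chr7:105591611-105600116 for Hpx and chr4:63143275-63154172 for Ambp, all on the minus strand, and chr5:137981521-137990233 on the plus strand for Azgp1.

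The 150 bases before the annotated start are printed for 2 pairs on 1 chromosome each whose members differed in FPKM fold, Itih4 with Itih1 and Afm with Gc, and for Azgp1 as a gene whose FPKM overlapped between the groups. The sequences are RefSeq's on GRCm38.p6, read 5′ to 3′ on the gene's strand, and the last base is the one before the start. Capitals mark matches to an HNF1 core (GTTAATNAT) or to the TATA box letters TATAAA, searched on both strands.
Itih4 (chr14:30886326-30886475, plus): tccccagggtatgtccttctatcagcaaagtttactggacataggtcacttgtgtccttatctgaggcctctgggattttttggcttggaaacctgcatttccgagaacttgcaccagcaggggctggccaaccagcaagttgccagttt
Itih1 (chr14:30943290-30943439, minus): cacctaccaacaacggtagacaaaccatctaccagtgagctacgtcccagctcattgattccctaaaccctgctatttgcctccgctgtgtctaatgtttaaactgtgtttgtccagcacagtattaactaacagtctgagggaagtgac
Afm (chr5:90518799-90518948, plus): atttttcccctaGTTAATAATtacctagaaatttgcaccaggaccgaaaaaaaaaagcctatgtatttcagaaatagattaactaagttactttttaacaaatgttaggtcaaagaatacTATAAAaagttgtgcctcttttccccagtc
Gc (chr5:89457899-89458048, minus): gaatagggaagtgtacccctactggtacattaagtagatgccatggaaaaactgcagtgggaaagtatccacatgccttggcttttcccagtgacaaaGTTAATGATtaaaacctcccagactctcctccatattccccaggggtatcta
Azgp1 (chr5:137981371-137981520, plus): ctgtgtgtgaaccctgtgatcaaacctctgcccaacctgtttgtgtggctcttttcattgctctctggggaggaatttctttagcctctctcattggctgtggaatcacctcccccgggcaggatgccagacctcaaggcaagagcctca

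The HNF1 core began 138 bases before the start of Afm and 52 bases before that of Gc. The same letters are found in 0.484% of the 32851 mouse windows of this length, and TATAAA, which stands 30 bases before the Afm start, in 7.57%. Afm and Gc both hold this HNF1 core, and no other of the 9 members searched does. TATAAA also stands 28 bases before the second listed start of Rbp4. The windows of Itih4, Itih1 and Azgp1 held neither motif. None of the 9 members searched held the HNF4 core CAAAGTCCA, which 0.271% of all windows hold. The window of Ttr was not searched. These are matches of letters in a window and do not show that a factor binds there.

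Transthyretin was the most abundant of the 10 in every mouse, and the only one whose FPKM was higher in all 3 laboratory mice than in all 3 wild mice. Ttr stood at 12966, 16515 and 10763 FPKM in laboratory mice 1, 2 and 3, and at 7137, 8476 and 8148 FPKM in wild mice 1, 2 and 3. The laboratory mean was 13415 ± 2902 FPKM and the wild mean 7920 ± 698 FPKM (SD, n = 3 each), which is 1.69 times higher in laboratory mice. On the zFPKM scale the difference was 0.53 (SE 0.078, adjusted p = 9.8e-10). On log2(FPKM + 1) it was 0.74 (SE 0.33, adjusted p = 0.113), and with each mouse centred on its own median on this scale 1.19 (adjusted p = 0.00714). Quantile normalization of zFPKM turned the sign of Ttr (-0.29, adjusted p = 0.0728), and centring zFPKM on the medians ended its call (0.56, adjusted p = 0.708). Among all estimated genes Ttr ranked 8th to 11th by FPKM in the laboratory mice and 4th to 7th in the wild mice, a higher place at a lower FPKM. As everywhere in bulk liver, fewer hepatocytes and less RNA per hepatocyte cannot be told apart here. The long non-coding gene Gm16090 overlaps the start of Ttr, at 0.0942 to 0.307 FPKM in laboratory and 1.35 to 2.12 FPKM in wild mice.

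Rbp4, the plasma carrier of retinol that travels bound to transthyretin, had the opposite order. Its FPKM was 2018, 2250.2 and 1459 in laboratory and 4375, 3749.5 and 4047 in wild mice. The groups did not overlap, and the wild mean was 2.13 times the laboratory mean. The log2(FPKM + 1) difference was -1.11 (SE 0.25, adjusted p = 0.0105), while the zFPKM difference was -0.13 (SE 0.086, adjusted p = 0.376) with overlapping groups.

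Gc, the carrier of vitamin D metabolites that also binds free actin, stood at 2904, 3360.2 and 2108 FPKM in laboratory and at 3808, 4631 and 4496 FPKM in wild mice. All 3 wild mice were higher in FPKM, by 1.54 times on average. The log2(FPKM + 1) difference of -0.65 (adjusted p = 0.0904) did not pass the test, nor did the zFPKM difference of 0.04 (adjusted p = 0.831), which has the other sign. Afm, a relative of albumin that binds vitamin E, was the least abundant of the 10 in every mouse and lower in laboratory mice on both scales. Afm gave 32.1, 45.2 and 63.5 FPKM in laboratory against 158, 177 and 194 FPKM in wild mice, without overlap, so that the wild mean was 3.76 times the laboratory mean. Its difference was -0.41 in zFPKM (SE 0.12, adjusted p = 0.00999) and -1.94 in log2(FPKM + 1) (SE 0.25, adjusted p = 0.00107). A part of the HNF1 core in the differences of Gc and Afm was not tested.

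**Figure D1:**
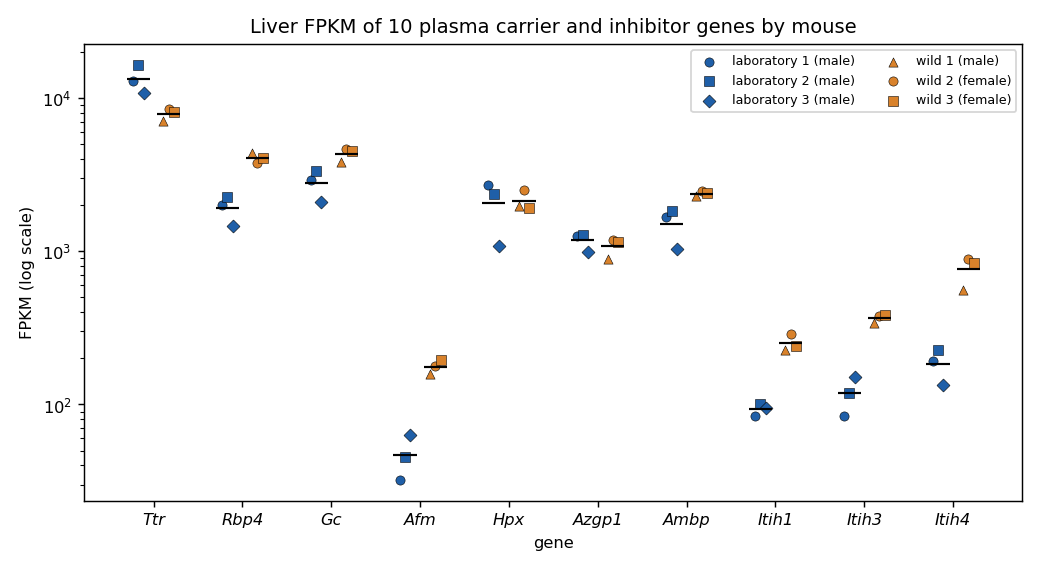
FPKM (y axis, log scale) of the 10 genes (x axis) in each of the 6 mice, with laboratory mice in blue, wild mice in orange, the wild male as a triangle and horizontal lines at the group means. Ttr lies higher in the 3 laboratory mice, Hpx and Azgp1 overlap, and the other 7 genes lie lower in the 3 laboratory mice than in every wild mouse.

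Hpx encodes hemopexin, which binds free haem in plasma and carries it to the liver. It stood at 2721, 2355 and 1082 FPKM in laboratory and at 1966, 2516 and 1915 FPKM in wild mice. The groups overlapped, and laboratory mouse 3 gave the lowest value of all 6. The difference was 0.20 in zFPKM (adjusted p = 0.117) and -0.15 in log2(FPKM + 1) (adjusted p = 0.778). Without laboratory mouse 3 the zFPKM difference was 0.30 (adjusted p = 0.00988).

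Azgp1, a secreted protein with a fold like that of the histocompatibility proteins and known as a lipid-mobilising factor, was close between groups in FPKM. It gave 1258, 1283 and 991 FPKM in laboratory and 889, 1190.3 and 1156 FPKM in wild mice, and the groups overlapped. In zFPKM every laboratory mouse was higher, from 3.12 to 3.15 against 2.71 to 2.91 in the wild mice, with a difference of 0.31 (SE 0.093, adjusted p = 0.00968). The log2(FPKM + 1) difference was 0.13 (SE 0.20, adjusted p = 0.643). The zFPKM call was lost without laboratory mouse 1 (adjusted p = 0.0731) and without wild mouse 1 (adjusted p = 0.0772).

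Of the inter-alpha-trypsin inhibitor genes, Ambp, the precursor from which bikunin is cut, stood at 1685, 1829 and 1041 FPKM in laboratory and at 2287, 2461 and 2401 FPKM in wild mice. The wild mice were all higher in FPKM, by 1.57 times on average. Neither the log2(FPKM + 1) difference of -0.69 (adjusted p = 0.0722) nor the zFPKM difference of 0.02 (adjusted p = 0.935) passed the test.

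The 3 heavy chain genes of chromosome 14 were all lower in laboratory mice on log2(FPKM + 1), and Itih3 and Itih4 also on zFPKM. Itih4, whose product has no bikunin attachment, gave 193, 228 and 133 FPKM in laboratory and 561, 888 and 842 FPKM in wild mice. Its lowest wild value, in the wild male, was well above the highest laboratory value, and the wild mean was 4.13 times the laboratory mean. The difference was -0.46 in zFPKM (SE 0.10, adjusted p = 0.000253) and -2.05 in log2(FPKM + 1) (SE 0.27, adjusted p = 0.00118), and the zFPKM call was kept with each mouse left out in turn.

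Itih3 gave 83.9, 119 and 151 FPKM in laboratory and 341, 376 and 383 FPKM in wild mice, a wild mean 3.10 times higher without overlap. Its difference was -0.31 in zFPKM (SE 0.11, adjusted p = 0.0377) and -1.66 in log2(FPKM + 1) (SE 0.22, adjusted p = 0.00127). The zFPKM call of Itih3 was lost without laboratory mouse 1, laboratory mouse 2, wild mouse 2 or wild mouse 3 (adjusted p = 0.218, 0.103, 0.185 and 0.252), and that of Afm without laboratory mouse 1, wild mouse 2 or wild mouse 3 (adjusted p = 0.0812, 0.0970 and 0.160). Itih1, a heavy chain that is joined to bikunin, gave 83.9, 101 and 95.3 FPKM in laboratory and 228, 289 and 242 FPKM in wild mice. The groups did not overlap and the wild mean was 2.71 times higher. For Itih1 the log2(FPKM + 1) difference was -1.42 (SE 0.14, adjusted p = 0.000457), and the zFPKM difference of -0.24 (SE 0.12, adjusted p = 0.166) did not pass the test.

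**Figure D2:**
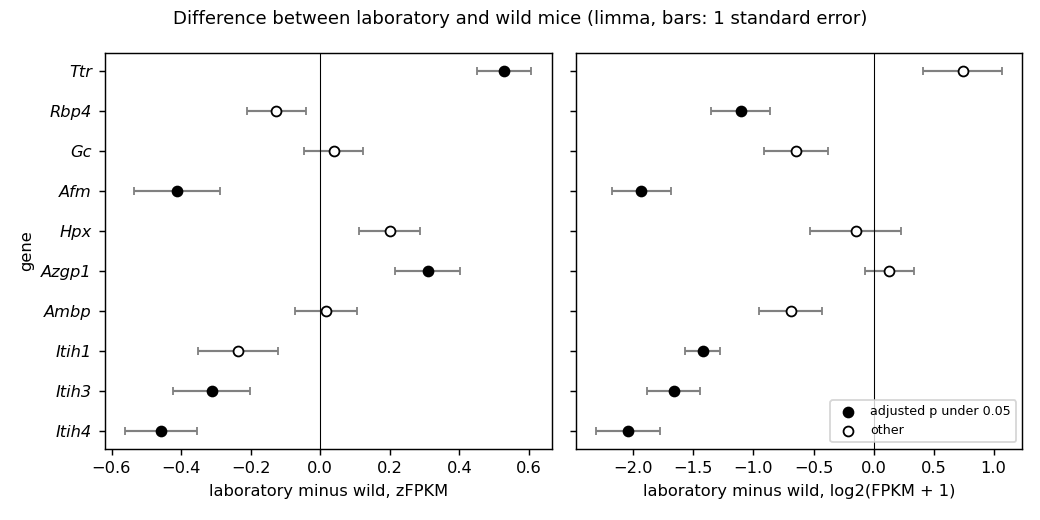
Difference between laboratory and wild mice (x axis) in zFPKM on the left and in log2(FPKM + 1) on the right for the 10 genes (y axis), with bars of 1 standard error from limma and filled points at an adjusted p under 0.05. Ttr lies to the right and Afm, Itih3 and Itih4 to the left in both panels, while Gc, Hpx and Ambp change sign between them.

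In zFPKM, 2 of the 10 genes were called higher in laboratory mice (Ttr and Azgp1), where 7.17% of all tested genes were, and 3 were called lower (Afm, Itih3 and Itih4), where 7.28% were. In log2(FPKM + 1), 5 were called lower (Rbp4, Afm, Itih1, Itih3 and Itih4) beside 36.8% of all tested genes. In the other direction limma called 0 of the 10, also at an unadjusted p under 0.05, beside 7.43%. On this scale the median difference of all tested genes was itself -0.20. With each mouse centred on its own median, a comparison added after the data were seen, 4 members were called lower (Afm, Itih1, Itih3 and Itih4) beside 22.3% of tested genes, and 1 was called higher (Ttr, difference 1.19, adjusted p = 0.00714) beside 42.4%. The FPKM ranges of the groups were apart with the laboratory mice lower for 7 members, against 43.7% of all tested genes, and with the laboratory mice higher for 1, against 12.1%. The zFPKM ranges were apart for 4 members with laboratory mice lower (14.1% of all) and for 2 with laboratory mice higher (14.2% of all). The median of the 10 differences was -0.05 in zFPKM and -0.90 in log2(FPKM + 1), and the sign was the same on both scales for 7 of the 10.

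The zFPKM standard errors rest on the spread of genes of similar level rather than on each gene's own 6 mice, which gave 0.083 in place of 0.078 for Ttr, 0.14 in place of 0.10 for Itih4 and 0.079 in place of 0.12 for Afm. None of the 5 zFPKM calls was kept when limma was run without the trend of variance with level. The same held without the filter on low values, and after each mouse was centred on its median zFPKM. Over all genes, these fits called 795 of 18619, 23 of 47232 and 5270 of 18619. The zFPKM fit used above called 2690 of 18619.

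Between-mouse scaling does not enter a comparison of genes within 1 mouse. The 10 genes summed to 23307 ± 5129 FPKM in laboratory and to 23442 ± 1539 FPKM in wild mice (SD, n = 3 each), but the make-up of that sum differed. Ttr took 54.2%, 58.8% and 60.2% of it in laboratory and 32.8%, 34.2% and 34.2% in wild mice. Rbp4 took 8.20 ± 0.21% in laboratory and 17.4 ± 2.5% in wild mice, and Gc 12.0 ± 0.17% and 18.4 ± 0.74%. For Ambp the shares were 6.46 ± 0.61% and 10.2 ± 0.30%, and for Itih4 0.788 ± 0.038% and 3.23 ± 0.57%. The shares of Hpx and Azgp1 overlapped between the groups. Without Ttr, the other 9 genes summed to 9893 ± 2415 FPKM in laboratory and 15521 ± 844 FPKM in wild mice.

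**Figure D3:**
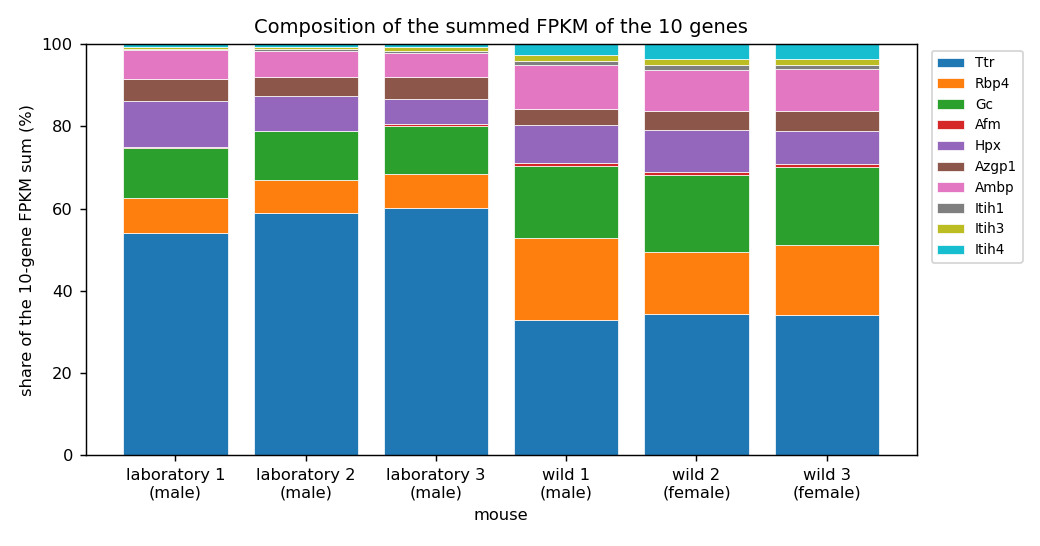
Share of each gene (colours) in the summed FPKM of the 10 genes (y axis, percent) in each mouse (x axis). Ttr fills 54.2% to 60.2% of the bars of the laboratory mice and 32.8% to 34.2% of those of the wild mice, and the blocks of Rbp4, Gc, Ambp and Itih4 are taller in the wild mice.

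The order of the levels changed little. Ttr was first, Azgp1 6th, Itih1 9th and Afm last in all 6 mice. Gc was second in 5 mice and stood behind Rbp4 in wild mouse 1, where 3808 and 4375 FPKM were measured. Hpx was above Rbp4 in laboratory mice 1 and 2 and below it in the other 4 mice. Ambp exceeded Hpx only in wild mice 1 and 3, and Itih3 exceeded Itih4 only in laboratory mouse 3. The neighbours Itih1 and Itih3 were nearly level in laboratory mouse 1, and their laboratory ranges overlapped.

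The ratio of 6 pairs of genes was tested by exact permutation (two-sided). With 3 against 3 mice, the smallest p that this test allows is 0.1. The products of each pair form a complex or belong to a gene family, except for Itih4 and Ambp. The Itih4 product has no bikunin attachment. Rbp4 per Ttr was 0.156, 0.136 and 0.136 in laboratory and 0.613, 0.442 and 0.497 in wild mice, 3.61 times higher in the latter on average. Itih4 per Ambp was 0.115, 0.125 and 0.128 in laboratory and 0.245, 0.361 and 0.351 in wild mice, 2.57 times higher. Both ratios had narrow ranges in the laboratory mice and did not overlap between the groups.

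Afm per Gc was 0.0111, 0.0135 and 0.0301 in laboratory and 0.0415, 0.0383 and 0.0432 in wild mice, so that laboratory mouse 3 lay closest to the wild mice. Itih1 per Ambp was 0.0656 ± 0.023 in laboratory and 0.106 ± 0.0098 in wild mice (SD, n = 3 each). Itih3 per Ambp was 0.0868 ± 0.051 and 0.154 ± 0.0053, and its highest laboratory value of 0.145 came close to the lowest wild value of 0.149. These 5 ratios were apart between groups, each with the smallest possible exact permutation p of 0.1 and an adjusted p of 0.12 over the 6 ratios, so none passed 0.05. Itih3 per Itih1, 1.26 ± 0.30 and 1.46 ± 0.14, overlapped (exact permutation p = 0.4). Of all 45 pairs among the 10 genes, 35 had ratios that did not overlap between the groups, including all 9 pairs with Ttr. These pairs share genes and are not independent, and the share over pairs of all tested genes was not determined. For single genes the FPKM ranges were apart in 43.7% of tested genes with laboratory mice lower and in 12.1% with laboratory mice higher.

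**Figure D4:**
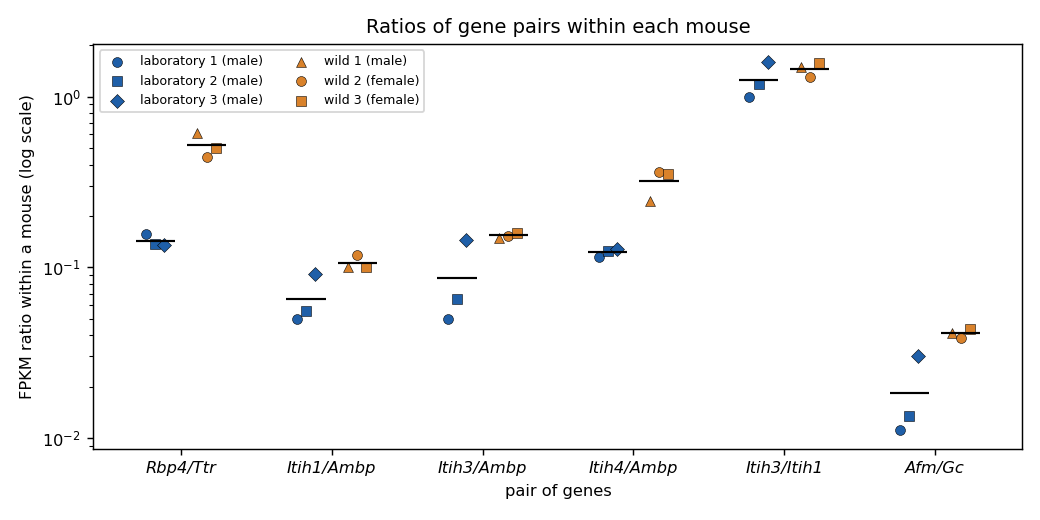
FPKM ratio of 6 pairs of genes (x axis) within each mouse (y axis, log scale), with laboratory mice in blue, wild mice in orange and lines at the group means. Rbp4/Ttr and Itih4/Ambp lie far apart between the groups, while Itih3/Itih1 overlaps and laboratory mouse 3 lies near the wild mice for Itih1/Ambp, Itih3/Ambp and Afm/Gc.

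Sex varied within the wild group. In FPKM the wild male lay outside the range of the 3 laboratory males for 9 of the 10 genes, the exception being Hpx. The share of all tested genes for which this held was not determined. It includes every gene with group ranges apart, 43.7% with laboratory mice lower and 12.1% with laboratory mice higher. The wild females averaged 1.54 times the wild male for Itih4, 1.32 times for Azgp1 and 0.89 times for Rbp4. Against the laboratory mean the wild male alone was 3.03 times higher for Itih4, 3.36 times for Afm, 2.88 times for Itih3, 2.44 times for Itih1 and 2.29 times for Rbp4, and at 0.53 times for Ttr. With sex in the model the origin term rests on that 1 wild male. The zFPKM difference was then 0.53 for Ttr and 0.42 for Azgp1. For Itih4 it was -0.28, for Afm -0.27 and for Itih3 -0.21, and those 3 calls were lost. The median difference of all tested genes was itself 0.27 in this fit, beside 0.0050 without sex. Calls lower in laboratory mice were also far fewer over all tested genes in this fit than without sex. Of 14 female-biased liver genes, 13 were called lower in laboratory mice in zFPKM, with a summed FPKM of 41.2 to 64.3 in the laboratory group, 181 in the wild male and up to 8241 in the wild females. Of 9 tested male-biased genes, 6 were called higher and 1 lower.

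Transcript length also moved with the result. The median log2(FPKM + 1) difference of tested genes went from 0.015 for transcripts under 500 bases to -0.43 for those of 6000 bases or more, and the median zFPKM difference from 0.26 to -0.10. A length was available for 88.6% of tested genes. The 3 members called lower in zFPKM had 3531 (Itih4), 2992 (Itih3) and 2465 bases (Afm), and Itih1, called lower only in log2(FPKM + 1), had 3077. Rbp4, also called lower only in log2(FPKM + 1), was the shortest with 1161 bases. Ttr had 1186, Ambp 1268, Azgp1 1297, Hpx 1499 and Gc 1801 bases. After the trend with length was removed, an alternative added after the data were seen, limma called 0 of the 10 genes in zFPKM (at an unadjusted p under 0.05, 2 lower and 0 higher), where 17.1% of the 16495 genes with a length were called lower and 13.5% higher. In log2(FPKM + 1) it then called 5 of the 10 lower, beside 27.1% of those genes, and 1 higher, beside 34.1%. The ratios of Rbp4 to Ttr, Itih4 to Ambp, Itih1 to Ambp and Afm to Gc stayed apart between groups after it, and Itih3 per Ambp overlapped (exact permutation p = 0.3).

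**Figure D5:**
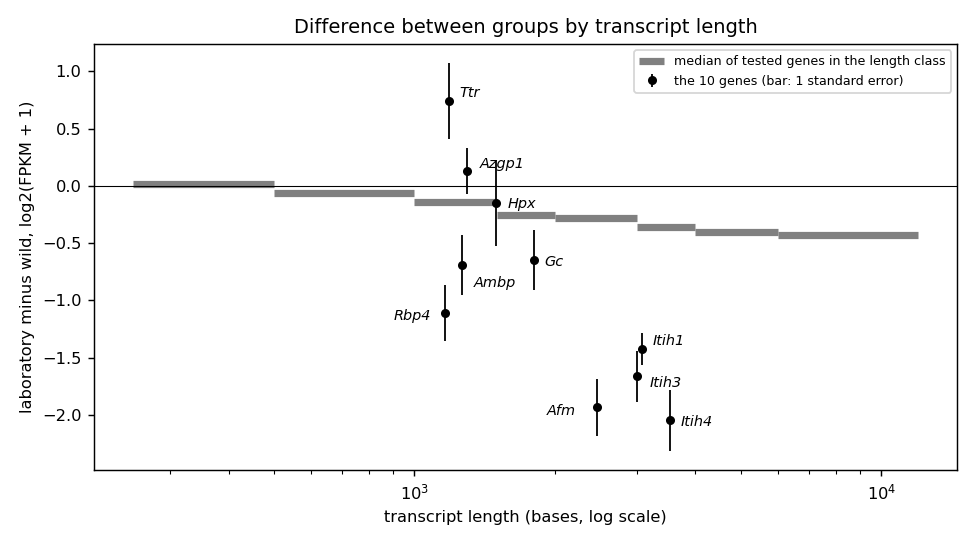
Difference in log2(FPKM + 1), laboratory minus wild (y axis), against transcript length (x axis, bases, log scale) for the 10 genes with bars of 1 standard error, and as grey bars the median of all tested genes in 8 classes of length, of which the shortest and longest are drawn in part. Afm, Itih1, Itih3 and Itih4 lie at -1.42 or below, under the medians of their classes, and Rbp4 and Ttr, of like length, lie on opposite sides of 0.

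Genes that act with the 10 were described from a list of 38, of which 36 had an estimate and 28 were tested. In zFPKM 3 were called higher in laboratory mice (7.17% of all tested genes) and 2 lower (7.28%), and in log2(FPKM + 1) 2 were higher (7.43% of all) and 9 lower (36.8% of all). Cyp24a1, Tnfaip6, Has2 and Pip were listed at 0 in every mouse, and Alb was among those with no usable estimate.

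On the thyroid hormone side, Dio1, the deiodinase that activates the hormone in liver, stood at 63.7, 60.1 and 32.4 FPKM in laboratory mice. In the wild mice it was at 0.195, 17.9 and 0.755 FPKM, so wild mouse 2 stood apart from the others and the groups did not overlap. The zFPKM difference was 2.08 (SE 0.19, adjusted p = 5.9e-24) and the log2(FPKM + 1) difference 3.90 (adjusted p = 0.0189). This zFPKM standard error rests on genes of similar level and not on the spread of Dio1 itself. By limma the zFPKM call was lost without the variance trend (adjusted p = 0.107) or without the filter on low values (adjusted p = 0.450). Of the retinol genes, the most abundant was Stra6l, a membrane receptor for Rbp4, with 11.0, 16.5 and 32.1 FPKM in laboratory and 28.5, 29.7 and 28.4 FPKM in wild mice. These overlapped, and the zFPKM difference was 0.03 (adjusted p = 0.929). Of the vitamin D genes, the most abundant was Cyp27a1, a mitochondrial hydroxylase of sterols, which overlapped as well (113 to 249 FPKM in laboratory, 205 to 281 FPKM in wild mice, zFPKM adjusted p = 0.889).

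Ttpa, the intracellular transfer protein of vitamin E in hepatocytes, stood at 40.9, 49.5 and 43.1 FPKM in laboratory and at 146, 182 and 179 FPKM in wild mice. The groups were apart, with a zFPKM difference of -0.41 (adjusted p = 0.0108) and a log2(FPKM + 1) difference of -1.90 (adjusted p = 0.000194), beside -0.41 and -1.94 for Afm. The zFPKM call of Ttpa was lost without wild mouse 2 (adjusted p = 0.125) or wild mouse 3 (adjusted p = 0.150), and with sex in the model (-0.25, adjusted p = 0.361).

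Itih2, the heavy chain gene that stands on chromosome 2 rather than in the cluster (chr2:10094591-10130683, minus strand, 3100 bases of transcript), gave 94.1, 136 and 99.0 FPKM in laboratory and 284, 438 and 401 FPKM in wild mice. The wild mean was 3.41 times higher without overlap, and the difference was -0.35 in zFPKM (adjusted p = 0.0156) and -1.76 in log2(FPKM + 1) (adjusted p = 0.00106). The zFPKM call of Itih2 was lost without laboratory mouse 1, laboratory mouse 3, wild mouse 2 or wild mouse 3 (adjusted p = 0.0665, 0.0715, 0.180 and 0.191). With sex in the model it was lost too (-0.16, adjusted p = 0.538). Itih2 and the 3 genes of the chromosome 14 cluster were thus all lower in laboratory mice on log2(FPKM + 1). Beside Itih2, the other 11 genes of inhibitor assembly and hyaluronan held 1 log2(FPKM + 1) call, Furin, a protease of the secretory pathway, at 33.6 to 38.7 FPKM in laboratory and 75.7 to 87.3 FPKM in wild mice (difference -1.12, adjusted p = 0.000516).

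Hp, the haemoglobin-binding protein haptoglobin, overlapped in FPKM (3089, 3823 and 1578 in laboratory, 2184, 2731 and 3228 in wild mice). Its zFPKM difference was 0.25 (adjusted p = 0.0305), close to the 0.20 of Hpx, and its log2(FPKM + 1) difference -0.02 (adjusted p = 0.978). The zFPKM call of Hp was lost without laboratory mouse 1, laboratory mouse 2, wild mouse 1 or wild mouse 2 (adjusted p = 0.168, 0.235, 0.207 and 0.193), and with sex in the model (0.34, adjusted p = 0.110). Adrb3, a receptor for catecholamines studied together with Azgp1 in fat tissue, was low in liver but higher in laboratory mice. It stood at 3.33, 3.30 and 9.59 FPKM in laboratory and at 0.253, 0 and 0.416 FPKM in wild mice. The zFPKM difference was 2.29 (limma adjusted p = 3.6e-08). Wild mouse 2 took the floor value, and with a floor of -5 the difference was 2.96. By limma the call was kept without the variance trend (adjusted p = 0.0357) and lost without the filter on low values (adjusted p = 0.450). Cebpa, the most abundant of 4 hepatocyte transcription factor genes, gave 107 to 132 FPKM in laboratory and 85.7 to 162 FPKM in wild mice and was not called (zFPKM adjusted p = 0.164).

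Other lists of genes also differed between the groups, in both directions. Of 15 acute phase genes, the plasma proteins that the liver makes more or less of in inflammation, 8 were called lower and 2 higher in laboratory mice in zFPKM, and their summed FPKM was 2687 to 5181 in laboratory and 6568 to 9755 in wild mice, without overlap. Among them Apcs stood at 46.1 to 74.8 FPKM in laboratory and 309 to 508 FPKM in wild mice, and Orm1 at 859 to 1981 FPKM and 421 to 984 FPKM. Of 7 erythrocyte genes 6 were called higher in laboratory mice, with sums of 1340 to 5135 FPKM and 724 to 1581 FPKM that overlapped. Neutrophil genes summed to 6.73 to 12.9 FPKM in laboratory and 1.82 to 2.60 FPKM in wild mice, with Ly6g at 0 in all 6, and 2 of 3 tested were called higher. The 4 stellate cell genes summed to 27.0 to 41.4 FPKM and 68.1 to 122 FPKM, most of it from Dcn (zFPKM adjusted p = 0.118), while Col1a1, the only gene of that list called in zFPKM, was higher in laboratory mice (2.29 to 5.28 FPKM against 0.545 to 1.85 FPKM, adjusted p = 0.0261). The part of these lists, of sex and of transcript length in the members' differences was not tested beyond the fits given above.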

How the data were processed

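RNA-Seq was carried out on liver of 6 mice (3 laboratory, 3 wild) from stranded mRNA libraries. The authors aligned reads with kalign to a masked mouse genome (GRCm38.p6 per the labels), calculated FPKM with the Tuxedo pipeline, scaled to transcript length and library size, and derived zFPKM. The deposited FPKM and the deposited zFPKM score were used. No counts were used here, so the authors' edgeR analysis was not repeated and the depth is known only in relative terms. Cufflinks' bounds, given for 5 mice, served only to find genes with about 1 read. Precision rests on 3 mice per group.

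Of 47256 gene names listed once, 24 with a failed estimate in a mouse were left out. Failures are not marked for laboratory mouse 1. Genes with zFPKM above -3 in at least 3 mice were tested after a floor of -3 was applied, by limma 3.58.1 in R 4.3.3 (lmFit, eBayes with trend, two-sided, Benjamini-Hochberg). The scale log2(FPKM + 1) with a pseudocount of 1 understates changes of low genes. Ratios, shares and permutation tests used scipy 1.17.1, pandas 2.3.3 and numpy 2.4.6 under Python 3.11.15. On simulated data, 78.5% of 200 genes shifted by 2 in zFPKM among 18619 were called, and 9 of 166 calls were false. The members' zFPKM differences were at most 0.53 in size (Ttr), and shifts of that size were not simulated.

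Named genes were the 10 members and, of 38 genes of their pathways, those called in zFPKM and the most abundant of each role. Furin, Apcs, Orm1 and the hepatocyte and stellate cell genes were added after their values were seen. Members and lists were chosen with earlier results of these data known. Upstream sequences were taken by symbol from RefSeq's table for GRCm38.p6 for 9 of 10 members, and Ttr was left out of this search. Transcript lengths came from the longest GENCODE transcript. Starts in the files count from 0, and 1 was added. Alternatives were other scales, pseudocounts, filters, floors and scalings, limma without trend, sex as a covariate, removal of the length trend and each mouse left out.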

Additional observations from a re-analysis of the deposited data

How the results depend on the processing

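No paired analysis was possible because the laboratory and wild mice are different animals and the labels give no pairing between them. The direction of Rbp4, Afm, Azgp1, Itih1, Itih3 and Itih4 was kept in all 18 alternatives. The members called were 2 higher and 3 lower in laboratory mice. They were 0 and 5 with either log2 pseudocount, 0 and 6 with quantile normalization, and 0 and 0 with the median of each mouse at 0, no filter, no variance trend or the length trend removed (at an unadjusted p under 0.05, limma gave 0 and 0, 0 and 4, 1 and 0, and 0 and 2). With sex as a covariate 0 were lower, also at an unadjusted p under 0.05. On log2(FPKM + 1) with medians at 0, 1 was higher, and with the length trend removed 1 was higher and 5 lower. With a mouse left out, 1 to 3 were higher and 1 to 3 lower. The 28 tested partners gave 3 higher and 2 lower. They gave 9 lower with either pseudocount, 1 lower with the median at 0, 4 lower with quantile normalization, 0 and 0 with no filter, 1 lower with a floor of -5, 1 higher and 0 lower without the trend, and 0 lower with sex. On log2(FPKM + 1) they gave 7 and 7 with medians at 0 and 7 and 6 with the length trend removed. With a mouse left out, 2 to 3 were higher and 0 to 2 lower. Over all 18619 tested genes, limma called 1335 higher and 1355 lower. These counts were 1384 and 6858 with a pseudocount of 1, and 1524 and 7065 with 0.1. They were 3478 and 3804 with quantile normalization, 2685 and 2585 with the median at 0, and 443 and 352 without the trend. With no filter they were 15 and 8 of 47232 genes. On log2(FPKM + 1) with medians at 0 they were 7892 and 4154.

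Differences reversed as follows. With log2(FPKM + 1) and log2(FPKM + 0.1), Gc was at -0.648 and -0.649, Hpx at -0.150 and -0.150, Ambp at -0.691 and -0.691, Cebpa at -0.0039 and -0.0036, Cyp27a1 at -0.685 and -0.689, Hp at -0.016 and -0.016, and Stra6l at -0.648 and -0.681. With quantile normalization, Ttr was at -0.285 (adjusted p = 0.0728), Gc at -0.421 (adjusted p = 0.0223), Hpx at -0.0052, Ambp at -0.155 and Hp at -0.024. On log2(FPKM + 1) with medians at 0, Gc was at -0.197, Ambp at -0.239, Cyp27a1 at -0.234 and Stra6l at -0.197, and with the length trend removed they were at -0.271, -0.412, -0.298 and -0.169. With the length trend removed from zFPKM, Ambp was at -0.030. With a mouse left out, Ambp ranged from -0.0080 to 0.064, Cyp27a1 from -0.061 to 0.085 and Stra6l from -0.048 to 0.095. The cause was not tested.

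The 6 ratios kept their direction in every alternative. Rbp4 per Ttr ranged from -1.96 to -1.72 on the log2 scale with a mouse left out, Itih4 per Ambp from -1.54 to -1.26, Afm per Gc from -1.75 to -1.02, Itih1 per Ambp from -1.01 to -0.57 and Itih3 per Ambp from -1.43 to -0.66. The last was at -1.43 without laboratory mouse 3. With 3 mice a group no ratio can reach 0.05, and the sex term rests on 1 wild male.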
